A study of Mus musculus with 2 samples.

Results

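The cells described here are macrophages of the mouse Achilles region that carried complement C1q transcripts together with Spp1, Fabp5 or Arg1. They were chosen by a rule on counts and not by clustering. Among barcodes with 500 or more genes and at most 10% mitochondrial UMIs (unique molecular identifiers, each standing for 1 captured transcript), a cell was kept if it met 4 limits. C1qa, C1qb and C1qc together had to reach 10 UMIs per 10000 UMIs of the cell, and Spp1, Fabp5 and Arg1 together had to reach 20. Cd163, Lyve1 and Folr2, which mark tissue-resident macrophages, had to stay below 8, and the osteoclast genes Acp5 and Ctsk below 20. The rule found 773 cells among 14126 kept cells of both libraries, 769 in the injured library and 4 in the uninjured library. They are called SPP1 FABP5 ARG1 macrophages below.

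The study made droplet libraries of single-cell RNA from soft tissue behind the tibia of mice aged 8 to 12 weeks, male and female. The injured library came from limbs with a burn/tenotomy (a skin burn with a cut through the Achilles tendon), collected on day 7. The uninjured library came from the contralateral limb of mice with the same burn/tenotomy, so its donors were burned and operated mice too. Both libraries are titled Vegfd-OE, for Vegfd overexpression. Mice of both libraries carried Hoxa11 wt/CreERT2, together with R26 wt/LSL-rtTA and TetO-Vegfd. In this system a Cre recombinase under the control of Hoxa11, a gene of limb mesenchyme, allows a doxycycline-dependent activator to switch on the lymphatic growth factor gene Vegfd. No library without the transgene was analysed here, and each value below belongs to transgenic mice. The design text gives 5 mice per group, and the sources used here do not say how many of them went into each library. Cells with Xist alone and cells with Y-linked UMIs alone occurred in both libraries. Vegfd itself had 58 UMIs in the injured members, a level of 4.19 CPM (the gene's UMIs scaled to the same total in every group). The injured cells under the C1q limit held 109 CPM of it. In the uninjured library the 4 members had 0 UMIs and the cells under the C1q limit 25.0 CPM. The source of this difference between libraries was not tested.

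As background, Spp1 encodes osteopontin, a secreted glycoprotein that binds CD44 and integrins and that macrophages make in healing wounds, fibrosis and mineralising tissue. Fabp5 encodes a carrier of fatty acids inside the cell, and Arg1 encodes arginase, which turns arginine into ornithine, a precursor of proline and polyamines. Macrophages with Spp1, Fabp5, Gpnmb and Trem2 are often described where dying cells and lipid are cleared. TREM2 is a surface receptor for lipids and GPNMB a glycoprotein of late endosomes and lysosomes. In tendon, macrophages that take up debris share the tissue with resident macrophages around vessels and with cells newly derived from blood monocytes.

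The injured library held 10691 deposited barcodes and 253050820 UMIs, the uninjured library 6850 barcodes and 101685524 UMIs, and 19 barcode sequences occurred in both, 1 of them an injured member. The injured members had a median of 16772 UMIs, against 14319 in the other injured C1q macrophages, and 114 members (14.8%) had under 3000 UMIs against 164 of 1527 others (10.7%). A Scrublet doublet score above 0.2 was found in 4.03% of members and 4.26% of the others. At least 1 marker list of another cell type reached 30 UMIs per 10000 in 107 members (13.9%) and in 188 of the others (12.3%), most often the fibroblast list, with 81 members. All 12 genes of a macrophage identity list (Adgre1, Csf1r, Lyz2, Mertk and others) were detected in the injured members, with a summed level of 17745 CPM. With 1 library per group there is no test of injury and no replicate check, and cells of 1 library are not replicates. Intervals below are exact 95% intervals of counting alone.

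SPP1 FABP5 ARG1 macrophages formed a large share of the injured C1q macrophages and were rare in the uninjured library. In the injured library 769 of 2296 C1q macrophages met the rule, a share of 33.5% (Clopper-Pearson interval 31.6 to 35.5). In the uninjured library 4 of 433 did, a share of 0.924% (0.252 to 2.35). The library around them differed too, since C1q macrophages were 24.5% of kept cells in the injured and 9.10% in the uninjured library. The median sum of Spp1, Fabp5 and Arg1 was 10.5 UMIs per 10000 over all injured C1q macrophages and 0 over all uninjured ones. The limit was also reached by 53 of 380 injured C1q macrophages that the resident-gene limit sent elsewhere (13.95%). None of the 212 uninjured cells of that kind reached it, which allows a share of up to 1.415% counted as 3 cells, or 1.725% by the exact interval. Sorted by sex-linked transcripts, 249 of 947 injured cells of female type (Xist UMIs alone) were members, or 26.3%. Of 799 male-type cells (Y-linked UMIs alone), 303 were, or 37.9%. How many of the 5 mice stand behind each set is not given, so the difference between female and male cells cannot be told apart from a difference between mice.

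**Figure D1:**
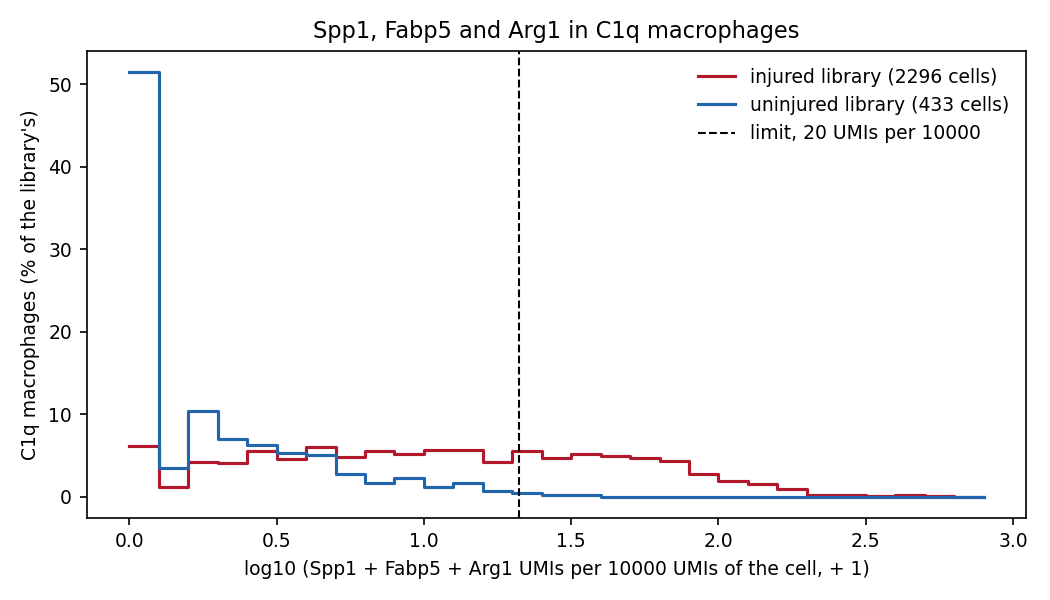
Distribution of the sum of Spp1, Fabp5 and Arg1 in the C1q macrophages of each library: the x axis is log10 of UMIs per 10000 UMIs of the cell plus 1, the y axis is the percent of the library's C1q macrophages in each bin, and the dashed line is the limit of 20. The 2296 injured cells spread across the limit, while nearly all of the 433 uninjured cells lie left of it.

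The limit cut a continuous range. Among injured C1q macrophages under the resident and osteoclast limits, 106 lay just outside it, at 15 to 20 UMIs per 10000. Another 106 lay just inside it, at 20 to 25. From just outside to just inside, the level of Gpnmb was 35.0 and 64.7 CPM, that of Trem2 408 and 427, and that of H2-Aa, an MHC class II chain, 2249 and 1799. The 4 uninjured members were a mixed set. By UMIs of Spp1, Fabp5 and Arg1, the first held 0, 58 and 0, the second 14, 28 and 0, the third 44, 2 and 0, and the fourth 72, 114 and 0. The fourth cell, with 89225 UMIs, a Scrublet score of 0.343, a C1q sum of 12.3 and fibroblast markers at 86.0 UMIs per 10000, stood apart from the other members. Because of this small number, the injured and uninjured members are not compared gene by gene. Between these 4 cells and the injured members 734 genes were past 2-fold higher (11.4% of 6419) and 830 past 2-fold lower (12.9%) in the injured, and against the other uninjured C1q macrophages 778 (11.9% of 6514) and 842 (12.9%) were, shares that nothing is read from.

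The 3 genes of the name did not contribute alike, and Arg1 marked only a minority of the members. The genes lie at chr5:104435118-104441050 (Spp1, plus strand), chr3:10012548-10016607 (Fabp5, plus strand) and chr10:24915221-24927484 (Arg1, minus strand) of mm10. All their values were set by the rule and are a description. Fabp5 had a UMI in 98.4% of the 769 injured members, Spp1 in 81.8% and Arg1 in 24.1%. With each cell thinned to 3000 UMIs, which leaves out 114 members, these shares were 95.9%, 69.9% and 16.3%. In injured endothelial cells (Pecam1 and Cdh5 UMIs, C1q under its limit, median 28345 UMIs), Spp1 had a UMI in 34.5% and Arg1 in 3.82%, or 5.83% and 0.824% after thinning. Fabp5 had a UMI in 89.4% of the endothelial cells, which make it themselves, so they give no background for it. Fabp5 alone reached the limit in 556 members, Spp1 alone in 266 and Arg1 alone in 15. The limit on the sum of the 3 genes was not specific to C1q macrophages. It was also reached by 781 injured cells under the C1q limit (8.34% of kept cells) and by 250 uninjured ones (5.25%). In these injured cells Fabp5 stood at 6158 CPM, the keratin Krt14 at 3260 and the collagen Col1a1 at 8600. In the uninjured ones Fabp5 stood at 2372 and Krt14 at 0. The part of other cell types' transcripts in the members' sums was not tested. By UMIs, 532 members were led by Fabp5, 224 by Spp1 and 13 by Arg1, with 10 ties. All 3 genes were detected together in 163 members, and Spp1 with Fabp5 but without Arg1 in 454. Over the 769 cells the levels of Spp1 and Fabp5 had a correlation of -0.28 (-0.25 after thinning), those of Spp1 and Arg1 0.17 (0.15) and those of Fabp5 and Arg1 -0.08 (-0.07). These cells share a library and were selected on the sum, which itself bears on such correlations.

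Trem2 and Gpnmb, markers proposed for these cells, were not part of the rule. Trem2 had a UMI in 89.9% of injured members, or 75.0% after thinning. The remaining injured C1q macrophages (those under every limit) had 74.4% and 47.6%, and injured endothelial cells 11.3% and 1.65%. Injured cells over the resident-gene limit had 82.1% and 54.5%, and the remaining uninjured cells 82.0% and 53.05%. Gpnmb had a UMI in 44.6% of injured members, or 29.3% after thinning. The remaining injured cells had 8.89% and 3.49%, and injured endothelial cells 3.76% and 0.888%. Injured cells over the resident-gene limit had 4.47% and 1.55%, and the remaining uninjured cells 12.4% and 6.57%. Of the genes outside the rule, Trem2 was thus detected in most members and Gpnmb in a minority, and of the genes in the name, most members had no Arg1 UMI.

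Against all other C1q macrophages of the injured library, the members had a higher level of Gpnmb. Single genes of lipid handling (Cd36, Hilpda), lysosomes (Ctsd, Ctsl) and iron handling (Hmox1, Slc40a1, Fth1) were higher too. The members' levels were lower for 6 of 7 tested MHC class II genes, 10 of 17 resident-macrophage genes and 4 of 12 monocyte genes. UMIs were summed over the 769 members and over the 1527 others and scaled to CPM, and a gene counted as called when its log2 ratio, with 5 CPM added to both levels, passed 2-fold. Outside the 11 genes of the rule, 39 of 6447 genes tested were called higher (0.605%) and 93 lower (1.44%). The median log2 ratio over all genes tested was -0.05. The rule itself defined this contrast, so these counts describe the members and nothing is read from their size.

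Of 20 genes in the list for TREM2 and lipid-associated macrophages, all tested, 6 were called higher, none lower, and the median log2 ratio was 0.83. Gpnmb stood at 226 CPM in members and 16.1 in the others, a ratio of 13.99 (12.6 to 15.6). Syngr1, a vesicle membrane protein, stood at 244 and 57.4, a ratio of 4.25 (3.995 to 4.53). Cd36, the scavenger receptor that takes up oxidised lipoprotein and fatty acids, stood at 360 and 97.8, a ratio of 3.68 (3.50 to 3.86). Lgals3, the secreted lectin galectin-3, stood at 1847 and 767.5, a ratio of 2.41 (2.36 to 2.45). Trem2 stood at 566 and 290, a ratio of 1.95 (1.889 to 2.015), which is under the 2-fold limit. Mmp12, macrophage elastase, stood at 157 and 37.5, but only 7.28% of members had a UMI of it and 1 cell gave 18.5% of its UMIs. Atp6v0d2, a subunit of the proton pump of lysosomes, stood at 49.3 and 9.94, a ratio of 4.96 (4.28 to 5.76). Every gene of this list had a log2 ratio above 0, from 0.12 for Vim, a filament protein, to 3.45 for Gpnmb.

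Few genes of lipid uptake and storage passed 2-fold. Of 20 genes listed 18 were tested, 2 were called higher (Cd36 and Hilpda), 15 had a log2 ratio above 0 and the median log2 ratio was 0.44. Hilpda, a lipid droplet protein that slows lipid breakdown, stood at 120 and 38.9, a ratio of 3.08 (2.85 to 3.34). Plin2, which coats lipid droplets, stood at 720 and 430, Lipa, the lysosomal lipase, at 336 and 186, and Apoe, the carrier of exported cholesterol, at 14591 and 10676, all under the limit. Fabp4, a relative of Fabp5, stood at 521 and 268.5, but cells under the C1q limit held 2531 CPM of it. The part of free RNA in that value was not tested.

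Lysosomal genes were called for the 2 cathepsins Ctsd and Ctsl, and most others stayed within 2-fold. Ctsd, an aspartic protease, stood at 2524 and 961 CPM, a ratio of 2.63 (2.58 to 2.67). Ctsl, a cysteine protease, stood at 2522 and 965, a ratio of 2.615 (2.57 to 2.66). Of 22 genes listed 21 were tested, none was called lower, and the median log2 ratio was 0.37. Psap, the precursor of the saposins that help to break down sphingolipids, stood at 4250 and 2127. Lamp2, a lysosomal membrane protein, stood at 447 and 523 and was the listed gene with the lowest ratio.

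The list for haem, iron and oxidative stress had 5 of 13 tested genes called higher, none lower and a median log2 ratio of 0.83. Hmox1, haem oxygenase, which opens the haem ring and frees iron, stood at 1681 and 792 CPM, a ratio of 2.12 (2.08 to 2.16). Slc40a1, ferroportin, the iron exporter, stood at 118 and 47.2, a ratio of 2.5 (2.32 to 2.70). Fth1, the heavy ferritin chain that stores iron, stood at 17508 and 7808, a ratio of 2.24 (2.23 to 2.26). Gclm, a subunit of the enzyme that starts glutathione synthesis, stood at 132 and 49.9, and Prdx1, a peroxidase, at 1414 and 702. Fth1 has many near-identical pseudogenes, so its level is uncertain to the extent that reads were split among copies. Tfrc, the transferrin receptor that brings iron in, had the lowest ratio of the list outside the rule, at 40.8 and 50.9.

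Promoters of 4 genes called higher in members, 2 lysosomal and 2 of oxidative stress, are shown with short motifs that a search of RefSeq windows (mouse GRCm38.p6, 250 bases before to 50 after the start) found in them. The E-box CACGTG is read by the TFE and MiT family of lysosomal regulators, and TGACNNNGC is the core of the antioxidant element read by NRF2. The E-box was present in 8 of 17 matched lysosomal genes (47.1%), against 8.09% of 27025 genes with a window. Of these 8 genes only Ctsd and Ctsl were called higher in members. The antioxidant core, on either strand, was present in 5 of 12 matched genes of the haem, iron and oxidative stress list (41.7%), against 14% of all genes. Of these 5 only Gclm and Prdx1 were called higher. Among the 12 genes named as higher, 4 held the E-box (Ctsd, Ctsl, Gdf15 and Pdpn) and 3 the AP-1 site TGANTCA (Gpnmb, Hilpda and Mmp12), which 8.97% of all genes hold. The AP-1 site was also in 2 of 9 matched genes named as lower (22.2%) and in 2 of 7 MHC class II genes (28.6%). The antioxidant core was in 2 of the 12 named as higher (16.7%) and in 2 of the 9 named as lower (22.2%). Among 15 matched genes of the TREM2 list, 1 held the E-box (6.67%), 2 the antioxidant core (13.3%) and 5 the AP-1 site (33.3%). The match in Prdx1 overlaps an AP-1 match, since its capitals also hold TGANTCA. These matches describe letters in a window and not bound sites. The 250 bases before the start of 4 called genes follow, each 5′ to 3′ on the gene's strand, with the motif in capitals: the E-box for Ctsd (chr7:142387828-142388077, minus strand, 245 and 98 bases before the start) and Ctsl (chr13:64370521-64370770, minus strand, 236 bases before), and the antioxidant core on the opposite strand for Gclm (chr3:122245307-122245556, plus strand, 134 bases before) and Prdx1 (chr4:116685349-116685598, plus strand, 133 bases before).
Ctsd: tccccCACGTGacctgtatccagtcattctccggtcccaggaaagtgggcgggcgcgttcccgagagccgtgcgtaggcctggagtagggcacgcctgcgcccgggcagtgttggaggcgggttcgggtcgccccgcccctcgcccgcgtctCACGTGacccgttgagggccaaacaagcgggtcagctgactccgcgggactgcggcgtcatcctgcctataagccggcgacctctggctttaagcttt
Ctsl: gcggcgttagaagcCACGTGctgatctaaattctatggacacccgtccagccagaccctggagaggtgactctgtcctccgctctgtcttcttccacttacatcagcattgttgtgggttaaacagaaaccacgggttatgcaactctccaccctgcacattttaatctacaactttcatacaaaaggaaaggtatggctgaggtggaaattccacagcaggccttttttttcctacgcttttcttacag
Gclm: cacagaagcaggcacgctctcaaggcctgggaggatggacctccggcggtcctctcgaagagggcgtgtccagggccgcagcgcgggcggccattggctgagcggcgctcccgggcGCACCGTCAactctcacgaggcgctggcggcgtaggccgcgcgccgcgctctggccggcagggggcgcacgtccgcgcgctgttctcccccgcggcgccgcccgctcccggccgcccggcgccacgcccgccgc
Prdx1: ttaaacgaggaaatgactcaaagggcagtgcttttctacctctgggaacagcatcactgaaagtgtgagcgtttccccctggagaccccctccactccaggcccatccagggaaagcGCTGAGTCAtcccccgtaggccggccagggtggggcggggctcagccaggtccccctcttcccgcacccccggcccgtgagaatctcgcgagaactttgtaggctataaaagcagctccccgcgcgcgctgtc

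Matrix and growth factor genes were called for a few members of their lists. Adam8, a membrane metalloprotease, stood at 161.5 and 43.6 CPM, a ratio of 3.70 (3.44 to 3.99), and with Mmp12 it made up the 2 of 11 tested proteases and inhibitors called higher. Gdf15, a stress-induced cytokine, stood at 256 and 109, a ratio of 2.35 (2.23 to 2.47), the only call among 16 growth factor and repair genes tested. Vegfa, the vessel growth factor, stood at 101 and 55.2, Thbs1, thrombospondin, at 626 and 441, and Igf1 at 338.5 and 427, all within 2-fold. None of 21 tested genes of glycolysis and hypoxia was called in either direction, although the median log2 ratio was 0.49 and 21 of 21 lay above 0. Outside the lists, Pdpn, podoplanin, a membrane mucin of lymphatic and stromal cells, stood at 153 and 52.7, a ratio of 2.91 (2.71 to 3.12), and Lhfpl2 at 159 and 65.4.

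MHC class II had the lowest median of the lists on macrophage programmes. Of 10 genes listed 7 were tested, 6 were called lower and the median log2 ratio was -1.54. H2-Aa stood at 1007 CPM in members and 2940 in the others, a level 2.92-fold lower (2.87 to 2.97). H2-Eb1 stood at 726 and 2320, and Cd74, the invariant chain that guides class II molecules to endosomes, at 1557 and 4594. The exception was Ctss, the cathepsin that trims that chain, at 3172 and 1933. H2-Aa had a UMI in 46.8% of members and 74.8% of the remaining cells, against 29.6% of endothelial cells, or 33.6%, 68.0% and 5.14% after thinning.

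Monocyte genes were lower than in all other injured C1q macrophages for 4 of 12 tested members of their list, with none higher. Against cells over the resident-gene limit alone, most tested genes of the list were higher, as given below. Ccr2, the chemokine receptor that brings monocytes out of the blood, stood at 59.6 and 264 CPM, a level 4.43-fold lower (4.12 to 4.77). Plac8 stood at 29.2 and 145, and Ly6c2, a surface marker of young monocytes, at 8.24 and 38.95. S100a4 and S100a6, calcium-binding proteins of the same list, stood at 611 and 632 and at 1429 and 1361. So the lower monocyte genes were a subset of the list. Among 15 tested inflammatory genes 3 were called lower and none higher: Il1b, interleukin-1 beta, at 247 and 518, the monocyte attractant Ccl7 at 122 and 264, and the chemokine Ccl8 at 1351 and 3635. Tnf stood at 123 and 130 and Cxcl2 at 984 and 843. Of 9 interferon response genes tested, Isg15, at 45.2 and 97.5, was the only call, and the median log2 ratio was -0.62.

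Resident-macrophage genes were lower for 10 of 17 tested members of the list, with a median log2 ratio of -1.02, but the rule had capped Cd163, Lyve1 and Folr2 in the members and not in the others. Retnla, a secreted resistin-like protein, had 2 UMIs in the 769 members and a level of 139 CPM in the others, 961-fold lower with a counting interval of 266 to 7937. Clec10a, a lectin of macrophages and dendritic cells, stood at 63.3 and 294, Cbr2, a carbonyl reductase, at 62.2 and 238, Cd209f at 4.55 and 102, and the related lectin Mgl2 at 6.65 and 97.7. The Cd209 genes are close copies of each other, so counts may be split among them. Complement genes other than C1q had 4 of 9 tested members lower and none higher, among them C4b at 25.9 and 140. Lifr, a cytokine receptor chain, stood at 29.4 and 134 and Hdac9, a histone deacetylase, at 34.5 and 138. The last gene named by the rule, Cst6, is not interpretable, since 1 cell gave 99.6% of its UMIs in the others.

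**Figure D2:**
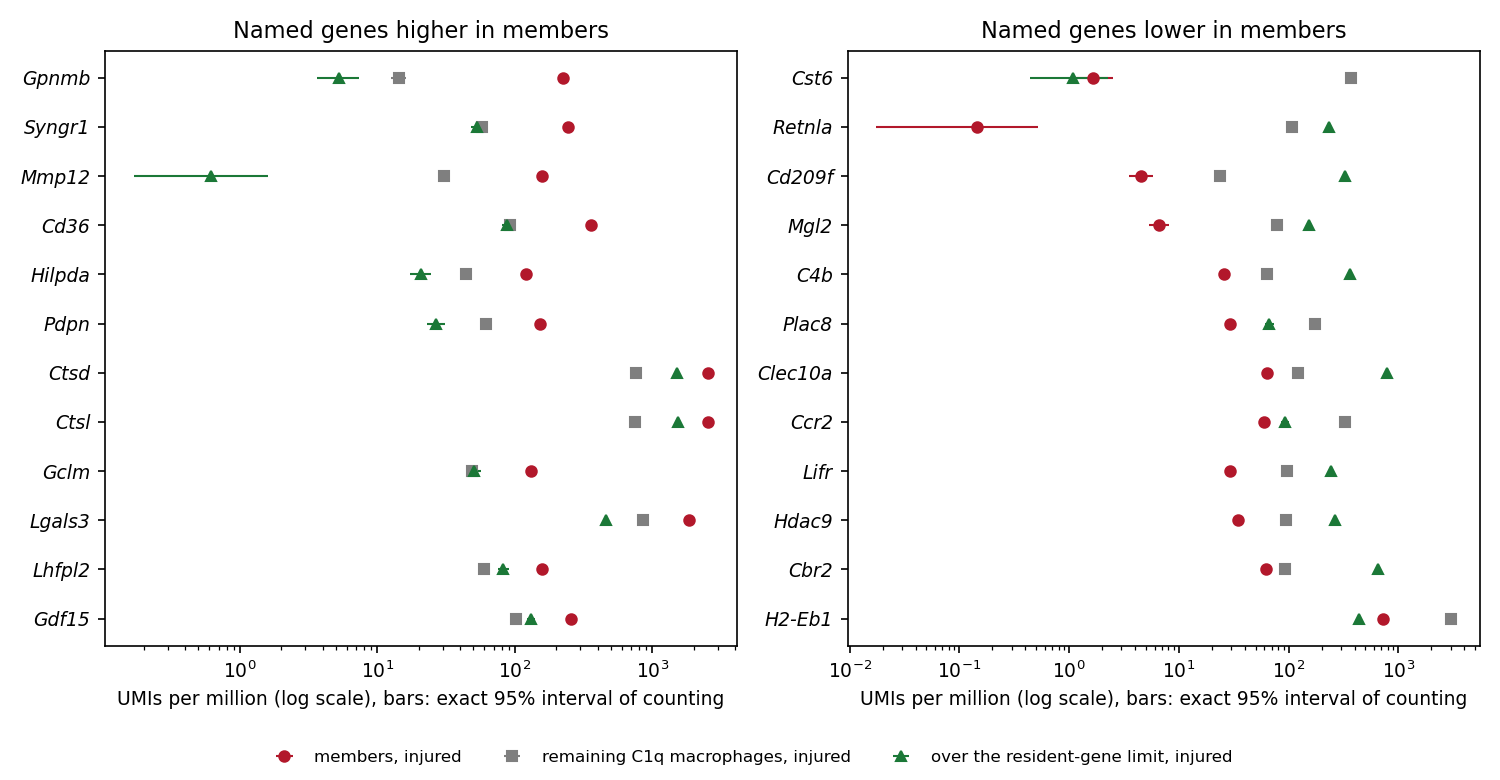
Levels of the 24 genes named by the fixed rule in the injured library, in CPM on a log axis, for members (red), remaining C1q macrophages (grey) and cells over the resident-gene limit (green), with exact 95% counting intervals as bars. Gpnmb lies at 226 in members and below 17 in both other groups, while H2-Eb1 separates the members (726) from the remaining cells (3001) and not from the resident-limit cells (439).

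Lists that describe basic macrophage functions were not called in this comparison. None of 12 macrophage identity genes (median log2 ratio 0.07), 17 genes of oxidative phosphorylation (0.18), 8 cell cycle genes (-0.36), 15 immediate early and stress genes (-0.41) and 7 arginine and polyamine genes outside the rule (0.25) was past 2-fold. Receptors of osteopontin were at like levels in both groups, with 0 of 7 tested past 2-fold and a median of 0.11. Cd44 stood at 520 and 502 CPM and the integrin chain Itgav at 186 and 138. Of 10 genes for uptake of dying cells 1 was lower (Pros1, at 37.3 and 85.0), while the receptor Mertk stood at 254 and 243. Of 6 chemokine receptors tested Ccr2 was the only call. Of 11 osteoclast genes outside the rule only Atp6v0d2 of 4 tested was higher, and Dcstamp, Ocstamp, Oscar and Car2 were each under 1.4 CPM in members, with Calcr and Siglec15 at 0.

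**Figure D3:**
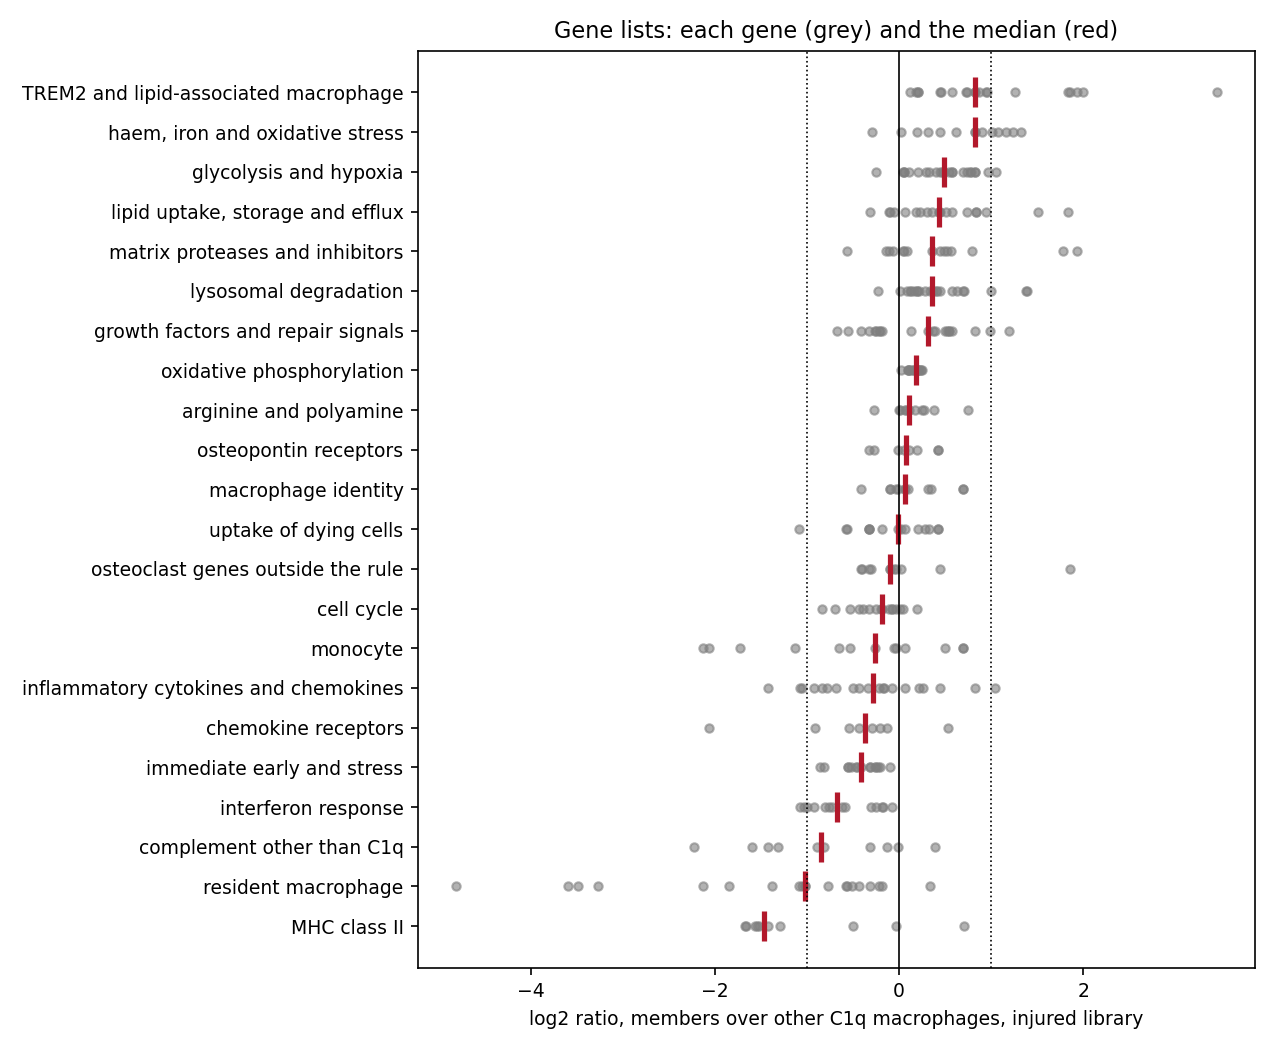
Log2 ratio of members over other C1q macrophages of the injured library for the genes of 22 lists that describe macrophage programmes, with all listed genes outside the rule in grey, their median in red and dotted lines at 2-fold. The TREM2 list and the haem, iron and oxidative stress list have the highest medians (0.83 and 0.82), and MHC class II the lowest; medians here run over all listed genes and can differ slightly from those over tested genes.

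Transcripts of other cell types moved with some of these groups. The keratinocyte list summed to 414 CPM in members and 102 in the others, with all 5 genes detected in both and 3 of 3 tested genes higher. Krt14, a keratin of basal skin cells, stood at 266 and 60.4, with 41.5% of the members' UMIs in 1 cell. The fibroblast list summed to 3281 in members, 7307 in the remaining cells and 664 in the resident-limit cells, with a median log2 ratio of -0.74 against all others. The typical cell did not follow these sums. Over single cells the list had medians of 5.19, 5.76 and 6.525 UMIs per 10000 in the same order, and maxima of 735.5, 1586 and 526.3. The neutrophil list summed to 413 in members and 501 in the others, that of vascular endothelium to 207 and 199.9, that of mural cells to 175 and 350 and that of dendritic cells to 12.8 and 45.15. Of the dendritic cell list 6 of 7 genes and of the muscle list 3 of 4 had UMIs in the members, with Xcr1 and Myod1 at 0. Il7r, from the list for T or NK cells, stood at 48.8 and 14.2 and had a UMI in 25.9% of members, while Cd3d, Cd3e, Trac and Nkg7 were each under 2 CPM. Without the cells that held 30 or more UMIs per 10000 of another cell type's list, an alternative chosen after seeing the data, the 22 named genes other than Cst6 and Gdf15 were still past 2-fold. The part of these transcripts in the other values was not tested.

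Apart from 11 cells over the osteoclast limit, the other C1q macrophages were of 2 kinds, and the members differed from each in other genes. The 1136 remaining cells held more Ccr2, Plac8, Ly6c2 and MHC class II transcripts than the members. The 380 resident-limit cells had lysosomal and MHC class II genes within 2-fold of the members. Against the remaining cells 48 of 6464 genes were higher in members (0.743%) and 124 lower (1.92%). Against the resident-limit cells 288 of 6341 were higher (4.54%) and 290 lower (4.57%).

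Against the remaining cells, in which the resident cap applied alike, 2 of 13 tested resident genes were lower, with a median log2 ratio of -0.12. MHC class II still had 6 of 7 tested genes lower, with H2-Aa at 1007 in members and 3776 in the remaining cells, 3.75-fold lower (3.68 to 3.82). Ccr2 was 5.50-fold lower (5.11 to 5.92), Plac8 5.95-fold (5.37 to 6.62) and Ly6c2 6.25-fold (5.14 to 7.67). Cx3cr1, the fractalkine receptor, stood at 51.8 and 122. Hmox1 stood at 1681 and 477, a ratio of 3.52 (3.44 to 3.61), and 5 of 13 tested genes of the haem list were higher. The fibroblast list had 5 of 5 tested genes lower in members here.

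Against the resident-limit cells the picture turned for several lists. No MHC class II gene was past 2-fold (0 of 7, median log2 ratio 0.59), and H2-Aa stood at 1007 in members and 637 in the resident-limit cells. No lysosomal gene of 22 was past 2-fold and their median was 0.00, with Ctsb, another cathepsin, at 5370 and 5511. Hmox1 stood at 1681 and 1665, but the haem, iron and oxidative stress list as a whole did not turn. It had 4 of 13 tested genes higher in members and 1 lower, with a median log2 ratio of 0.89. The TREM2 list had 13 of 19 tested genes higher, with Gpnmb at 226 and 5.28, a ratio of 42.8 (30.5 to 61.9), and Cd9, a tetraspanin, at 247 and 32.0. The glycolysis and hypoxia list had 10 of 21 higher, and the protease list 7 of 11. Vegfa stood at 101 and 10.55, a ratio of 9.57 (7.502 to 12.4), Thbs1 at 626 and 117, and Fn1, fibronectin, at 563 and 65.65. The fibroblast list also had 5 of 5 tested genes higher in members than in resident-limit cells, and fibroblasts make Fn1 and Thbs1. Its part in these values was not tested. Of 18 tested resident genes outside the rule 15 were lower in members, such as Mrc1, the mannose receptor, at 1197 and 3879 and F13a1, a clotting factor subunit, at 574 and 2835. The monocyte list had 5 of 8 tested genes higher and 1 lower, with a median log2 ratio of 1.69, though Ccr2 stood at 59.6 and 92.65. Of 16 tested inflammatory genes 2 were higher and 6 lower, with Il1b at 247 and 56.5 and Ccl8 at 1351 and 9966.

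Among the members themselves, the cells led by Spp1 and those led by Fabp5 differed past 2-fold in few genes. Among these were 4 of MHC class II, Mmp12 and Lpl, and summed keratinocyte transcripts differed too. Of 6289 genes tested, 21 were past 2-fold higher in the 224 cells led by Spp1 (0.334%) and 41 lower (0.652%). Mmp12 stood at 352 CPM in the cells led by Spp1 and 88.5 in the 532 led by Fabp5. Lpl, lipoprotein lipase, which frees fatty acids from lipoproteins, stood at 560.5 and 205, and Gpnmb at 305 and 201. MHC class II had 0 of 7 tested genes higher and 4 lower, with a median log2 ratio of -1.29, and H2-Aa stood at 422.5 and 1232. Hmox1 stood at 1294 and 1716 and Slc40a1 at 90.9 and 130. The keratinocyte list summed to 51.6 CPM in cells led by Spp1 and 552 in those led by Fabp5, with 3 of 3 tested genes lower in the first (median log2 ratio -2.76), and the fibroblast list to 3087 and 3411. The 13 cells led by Arg1 stood apart on small counts, with Hmox1 at 6213, Ctsl at 6227, Il1b at 918 and Cxcl3, a chemokine that draws neutrophils, at 622. In all members with an Arg1 UMI (185 cells) H2-Aa stood at 315, against 1315 in the 584 without, and Cd36 at 660 against 226. The same split differed in depth (median 20869 against 15339 UMIs), in the keratinocyte list (990 against 158 CPM) and in the fibroblast list (1847 against 3920 CPM), and their part in these values was not tested.

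The members also varied with the size of the sum that selected them. The lowest tertile (257 cells) ran from 20.09 to 36.25 UMIs per 10000 and the highest (256 cells) from 64.03 to 578.5. Of 6212 genes tested 35 were past 2-fold higher in the highest tertile (0.563%) and 213 lower (3.43%). Of the 20 genes of the TREM2 list 8 were higher and 1, Fabp4, was lower, with a median log2 ratio of 0.76. Gpnmb stood at 103, 163 and 409 CPM in the lowest, middle and highest tertile, Ctsd at 1646, 2133 and 3780 and Hmox1 at 1191, 1546 and 2300. H2-Aa stood at 1585, 996 and 443.5, and 5 of 7 MHC class II genes were lower in the highest tertile. Other named genes had no such order, such as Gdf15 at 236, 215 and 316, Ccr2 at 90.1, 36.85 and 51.9 and Clec10a at 69.0, 57.6 and 63.3. The fibroblast list summed to 4761, 4361 and 746 CPM in the same order and the keratinocyte list to 254, 52.8 and 930, and their part in these gradients was not tested. The tertiles rest on the genes of the rule, so the order is a description.

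**Figure D4:**
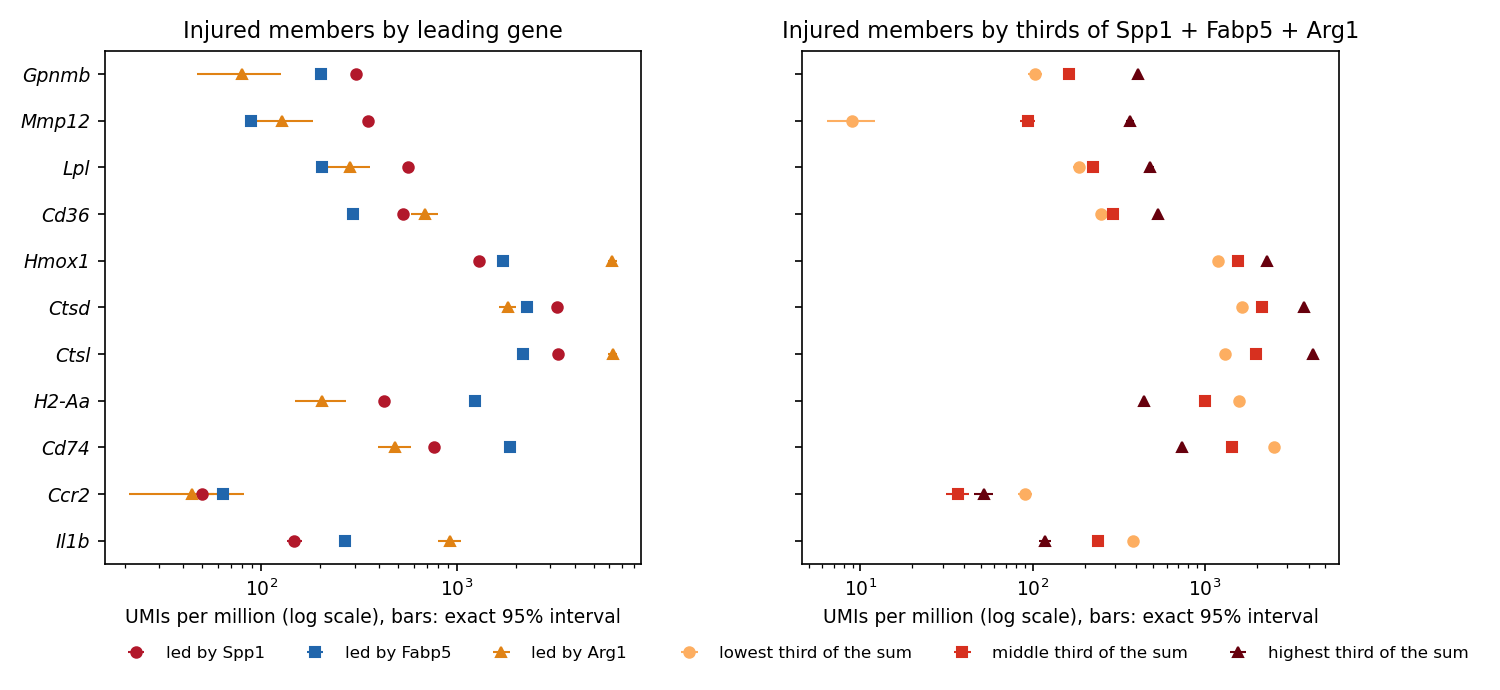
Levels of 11 genes in subsets of the 769 injured members, in CPM on a log axis with exact 95% counting intervals: left, cells led by Spp1, Fabp5 or Arg1; right, tertiles of the sum of the 3 genes. Gpnmb climbs from 103 to 409 and H2-Aa drops from 1585 to 443.5 between the lowest and highest tertile.

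To set the injured and uninjured libraries side by side without selecting on Spp1, Fabp5 or Arg1, all C1q macrophages under the resident and osteoclast limits were pooled in each library, 1905 injured and 221 uninjured cells. In this pool Spp1 stood at 1124 CPM in the injured and 111 in the uninjured library, a ratio of 10.1 (9.20 to 11.1). Fabp5 stood at 2043 and 237, a ratio of 8.63 (8.10 to 9.22). Arg1 stood at 91.55 and 1.00, the latter from 4 UMIs, a ratio of 91.5 (35.7 to 336). The members were defined by Spp1, Fabp5 and Arg1 in the same libraries. The ratios of these genes are therefore a description and give no separate support. Of 6443 genes tested outside the rule, 203 were past 2-fold higher in the injured pool (3.15%) and 182 lower (2.82%), with a median log2 ratio of 0.06.

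The iron and oxidative stress list was higher in the injured pool for 7 of 12 tested genes, with a median log2 ratio of 1.06. Hmox1 stood at 997 in the injured and 207 in the uninjured pool, a ratio of 4.82 (4.50 to 5.17), and Slc40a1 at 71.4 and 11.0, a ratio of 6.49 (4.82 to 8.96). Slc7a11, the cystine importer that feeds glutathione synthesis, stood at 118 and 19.0. Hilpda stood at 76.7 and 11.8, Vegfa at 83.7 and 16.75 and Ctsl at 1517 and 402. MHC class II had 7 of 8 tested genes lower in the injured pool, with Cd74 at 4000 and 13553. Retnla stood at 60.9 and 3012, a level 49.5-fold lower (47.2 to 51.9). Lists of other cell types differed between the pools too. In the injured pool 2 of 2 tested keratinocyte genes (median log2 ratio 4.14), 2 of 3 neutrophil, 2 of 5 fibroblast and 1 of 3 mural genes were higher, and 1 of 5 endothelial, 1 of 1 dendritic and 1 of 1 muscle genes were lower. Their part in the pool values was not tested.

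The TREM2 list was split across the libraries, unlike within the injured library. Of 19 genes tested 4 were higher and 1 lower in the injured pool, with a median log2 ratio of 0.11. Trem2 stood at 402 and 323, a ratio of 1.245 (1.175 to 1.32). Cd36 stood at 208 in the injured and 395 in the uninjured pool, Lpl at 251 and 431 and Fabp4 at 404 and 893. Uninjured cells under the C1q limit held 7651 CPM of Fabp4 and 1269 of Cd36, and the part of free RNA in the macrophage values was not tested. In the whole pool Gpnmb stood at 105.7 CPM in the injured and 52.5 in the uninjured library, a ratio of 2.01 (1.75 to 2.32) that is under the limit on the log2 scale with 5 CPM added. Among the remaining cells alone it stood at 14.35 and 39.7, but setting the members aside removed 769 of 1905 injured and 4 of 221 uninjured cells, so nothing is read from that order. Over these remaining cells 220 of 6478 genes were past 2-fold higher in the injured library (3.4%) and 136 lower (2.1%).

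**Figure D5:**
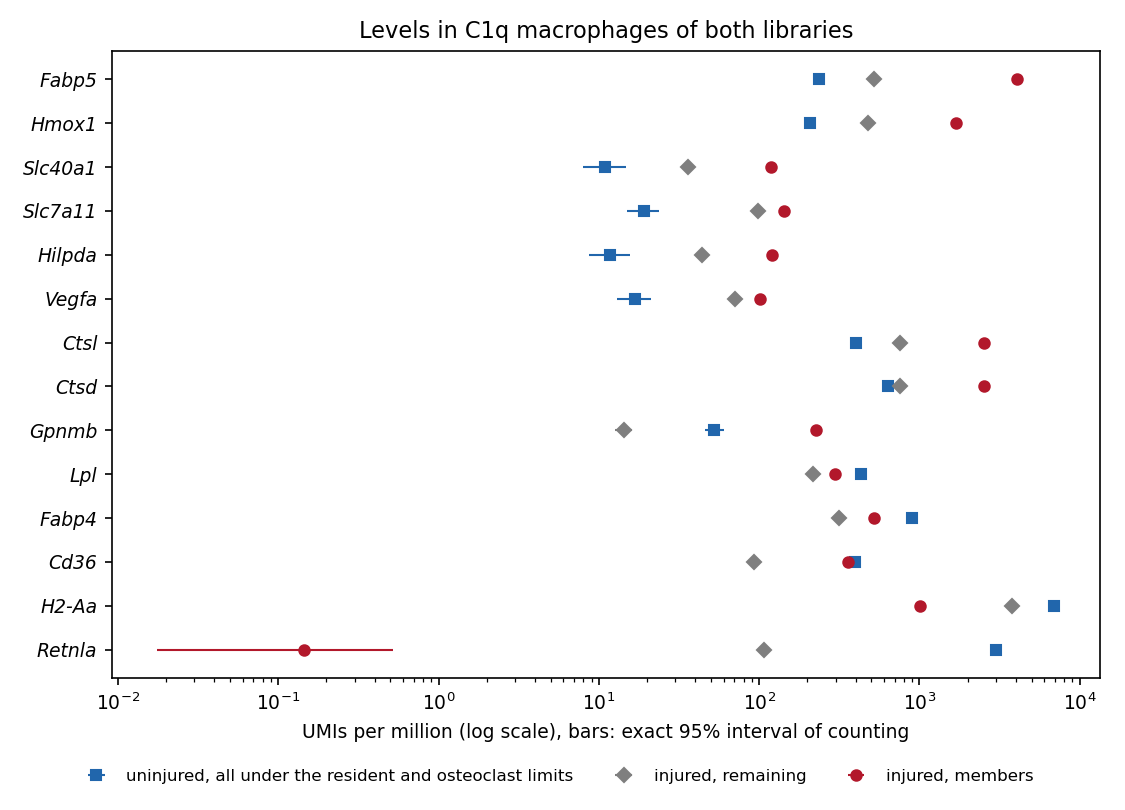
Levels of 14 genes in C1q macrophages under the resident and osteoclast limits, in CPM on a log axis with exact 95% counting intervals: all such uninjured cells (blue), injured cells under the Spp1, Fabp5 and Arg1 limit (grey) and injured members (red). Hmox1 runs 207, 477 and 1681 across the 3 groups, whereas Cd36 is at 395, 92.2 and 360.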

How the data were processed

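Droplet single-cell libraries of 1 injured and 1 uninjured group were used. The deposited values were UMI counts per gene and barcode, made by the authors; the submitters' processing notes name Cell Ranger 5.0.1 and mm10. From these counts, barcodes with under 500 genes or over 10% mitochondrial UMIs were left out, no doublets were removed (Scrublet in scanpy 1.11.5 was scored and tried as an alternative), and the rule was applied per cell. UMIs were summed over the cells of a group and scaled to the same total (CPM). A gene was tested when its mean over both groups was 20 CPM or more, and called past 2-fold on log2(CPM + 5). With 1 library per group there is no test. Intervals are exact Poisson, Clopper-Pearson or conditional intervals (scipy 1.17.1) and cover counting error only. To compare shares of cells with a UMI, cells were thinned to 3000 UMIs. The calling step was tried on simulated sums drawn with counting error alone and with a lower limit on levels. Such sums hold no variation between cells, so they are no check on genes whose UMIs come mostly from 1 cell.

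The members and the 33 gene lists were chosen with earlier results of these data known. Named genes were the 12 highest and 12 lowest log2 ratios among genes at 50 or more CPM with the same sign in the uninjured library. That sign came from the 4 uninjured members against the other uninjured C1q macrophages. Of the 145057 UMIs of these 4 cells 1 cell gave 89225, so the shared sign is no check across libraries. Left out were the rule's genes, those of mitochondria, ribosomal proteins, haemoglobins, immunoglobulins and the sex chromosomes, and unnamed models. Genes under 0.5 of their level in cells under the C1q limit were left out too. Other genes were named from their list. The same rule, without the condition on sign, named genes for injured against uninjured members, which are not described because the uninjured library held 4 members. The alternatives tried were other limits, thinning, doublet and depth filters, cells of 1 sex, another pseudocount, scaling, weighting and low-level filter, and leaving out cells with other cell types' markers.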

Additional observations from a re-analysis of the deposited data

How the results depend on the processing

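The members' share of injured C1q macrophages stayed within its counting interval except in 3 settings. It was 20.17% with the limit on Spp1, Fabp5 and Arg1 at 40 UMIs per 10000, 26.29% in female-type cells and 37.92% in male-type cells. The uninjured share was 0 at the limit of 40 and 0 in male-type cells, so neither setting gave gene counts with uninjured members. The count of genes higher in injured members than in other C1q macrophages was 78 in female-type cells, and the count lower was 244 at the limit of 40, 167 in female-type cells and 163 with no filter on low levels. For the 4 uninjured members against other uninjured cells, 470 genes were higher when the rule was applied to thinned counts, and 1660 were higher and 2615 lower with no filter. For injured against uninjured members 476 were lower with thinned counts, and 2358 were higher and 1776 lower with no filter. Cst6 changed sign, to a log2 ratio of 0.11 with a C1q limit of 20 and 6.32 with thinned counts, against -5.39. The other gene counts (64 of 74 values) were within 1.5 times. Of 24 named genes 22 were past 2-fold under all 14 alternatives, Gdf15 falling to a log2 ratio of 0.97 in male-type cells. Sizes shifted more: 79 of 336 values of named genes lay outside their counting interval, and log2 ratios ran from 3.0 to 4.49 for Gpnmb, 1.38 to 2.81 for Mmp12 and -4.4 to -1.94 for Cd209f. List medians over all listed genes ran from 0.70 to 0.94 for the TREM2 list, 0.57 to 1.0 for the haem list and -1.70 to -1.41 for MHC class II. The medians of 3 lists changed sign: growth factors (-0.21 to 0.38), monocyte (-0.52 to 0.04) and uptake of dying cells (-0.07 to 0.10). The cause of these shifts was not tested. No paired analysis was possible because each group had 1 library. Each comparison rests on 1 library per group, the uninjured members are 4 cells, and shallow cells can miss low transcripts such as Arg1.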
